A study of Mus musculus with 6 samples.

Results

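Cytosolic ribosomal proteins are the protein components of the ribosome, and their genes were described here in the mouse mammary carcinoma line 4T1, with and without corticosterone. Members were taken by name from the deposited gene table: symbols of the Rpl and Rps series, Rplp0 to Rplp2 and Rpsa, kept where the transcript type included protein coding. This gave 84 of 28154 rows, 52 of the large and 32 of the small subunit. Another 5 rows with such a name (Rpl32l, Rpl6l, Rps3a2, Rps3a3 and Rps4l) had no protein-coding transcript type and were not members.

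The study compared 3 libraries of control 4T1 cells with 3 libraries of 4T1 cells given corticosterone, the main glucocorticoid of rodents. All 6 came from the same line, and the labels name no genotype or agent other than corticosterone. How the controls were handled and how much corticosterone was given, or for how long, is not known from the labels. Nothing in the labels says that the replicates were separate cultures, so the p-values measure the spread between these libraries, which may be technical.

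The ribosome is built of a small subunit, which reads the mRNA, and a large subunit, which joins the amino acids. Every active ribosome needs its proteins in fixed proportion, and their mRNAs are among the most abundant of growing cells. Most of these mRNAs begin with a C followed by a run of pyrimidines, the terminal oligopyrimidine (TOP) motif. Through this motif their translation responds to the mTORC1 growth pathway. Glucocorticoids act through a nuclear receptor that changes transcription, and in many tissues they also restrain mTORC1, partly by inducing inhibitors of it.

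Library totals ran from 62175495 counts in corticosterone replicate 1 to 66249288 in corticosterone replicate 2, with 22244 to 22683 genes at 1 count or more. The glucocorticoid target Per1 was at 18.4, 20.5 and 20.1 counts scaled to library depth (CPM) in control replicates 1, 2 and 3 and at 62.6, 71.1 and 65.3 CPM in corticosterone replicates 1, 2 and 3, and Tsc22d3 was likewise higher in each treated library. Epithelial markers were present (Krt18 at 755 and Krt8 at 428 FPKM in controls), and the summed levels over the 6 libraries were 4.17 to 5.30 FPKM for 7 leukocyte markers, 2.80 to 3.83 for 5 fibroblast markers and 0.164 to 0.350 for 5 endothelial markers. The 4 tested fibroblast markers had medians of -0.082, -0.20 and 0.41 (log2, relative to the control mean) in controls and 0.47, 0.42 and 0.25 in treated libraries, and the 2 tested endothelial markers -0.14, 0.21 and -0.072 in controls and -0.51, -0.22 and -0.45 in treated libraries. None of these markers rose or fell with all libraries (1 endothelial marker had an unadjusted p under 0.05), 1 endothelial marker fell without corticosterone replicate 2, and their part in the results was not tested. Below, 3 values in a row stand in the order of replicates 1, 2 and 3, and CPM include the TMM library scaling (trimmed mean of M values). A gene is said to have risen or fallen only at an adjusted p under 0.05 in edgeR's quasi-likelihood test, with Benjamini-Hochberg adjustment over all 17283 genes tested. A log2 fold change is corticosterone minus control.

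A single treated library stood apart from the other two treated ones in these genes. Relative to the mean of the controls, the median ribosomal protein gene was at -0.060, 0.0018 and 0.063 (log2) in the 3 control libraries. It was at -0.18 in corticosterone replicate 1 and -0.25 in replicate 3, but at 0.13 in replicate 2. The medians of replicates 1 and 3 thus lay below those of all controls and that of replicate 2 above, so results are given with all 6 libraries and without corticosterone replicate 2. Leaving out each library was planned, but this one was singled out after its values were seen. The 7 epithelial markers had a like order of the treated libraries, with medians of -0.0063, -0.018 and 0.041 in controls and -0.088, 0.095 and -0.13 in treated libraries and summed levels of 1549 to 1613 and 1437 to 1699 FPKM, and 0 of them rose or fell with all libraries (2 at an unadjusted p under 0.05). Without corticosterone replicate 2, 0 of the 7 rose and 3 fell, beside 10.5% and 10.0% of all genes, and their median was -0.10. In these bulk libraries a shift in the mix of cells and a change of RNA per cell cannot be told apart. The part of the markers' shift in the result was not tested.

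With all 6 libraries, 0 of 83 tested ribosomal protein genes rose and 0 fell, beside 1.35% and 1.46% of all tested genes (2.82% in either direction). The untested member, Rpl3l, a form of Rpl3 known from heart and skeletal muscle, had 4, 0 and 0 counts in controls and 0, 6 and 0 in treated libraries and was too low to test. An unadjusted p under 0.05 was reached by 4 members (Rpl7a, Rpl22, Rpl38 and Rpl39), beside 17.0% of all genes, and the lowest adjusted p among members was 0.165. DESeq2 and limma on log2(FPKM + 1) also called 0 members, beside 3.95% and 4.26% of the genes in each fit. There 7 and 6 members had an unadjusted p under 0.05, and the lowest adjusted p was 0.0639 and 0.125. With edgeR on genes with a mean of at least 5 FPKM, 0 members were called and the lowest adjusted p was 0.0985.

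The sign of the fold change was nevertheless shared. It was below 0 in 82 of 83 members, beside 50.0% of all tested genes, and the exception was Rpl30. The median log2 fold change was -0.088, against 9.6e-05 for all genes, with quartiles of -0.13 and -0.062. It was -0.085 with DESeq2 size factors in edgeR and -0.088 with TMM factors computed without ribosomal protein genes. Single libraries moved it: -0.057 without control replicate 3, -0.048 without corticosterone replicate 1 and -0.012 without corticosterone replicate 3, where 50 of 83 members were below 0. Members were not independent of each other here, because all were read in the same 6 libraries.

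Without corticosterone replicate 2, 65 of 83 members fell and 0 rose. In that comparison 10.0% of 17862 tested genes fell and 10.5% rose. The median log2 fold change of the members was -0.23. The 18 tested members that did not pass were Rpl6, Rpl7l1, Rpl8, Rpl10a, Rpl10l, Rpl12, Rpl15, Rpl21, Rpl22l1, Rpl26, Rpl30, Rpl35a, Rpl39l, Rps2, Rps3a1, Rps6, Rps7 and Rps18. This comparison rests on 3 control and 2 treated libraries, and replicate 2 was singled out for its values in these same genes. Counts and adjusted p-values without it, here and for single members below, therefore describe the other libraries. They are not separate support for a fall. Leaving out any other single library called 0 members in either direction.

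**Figure D1:**
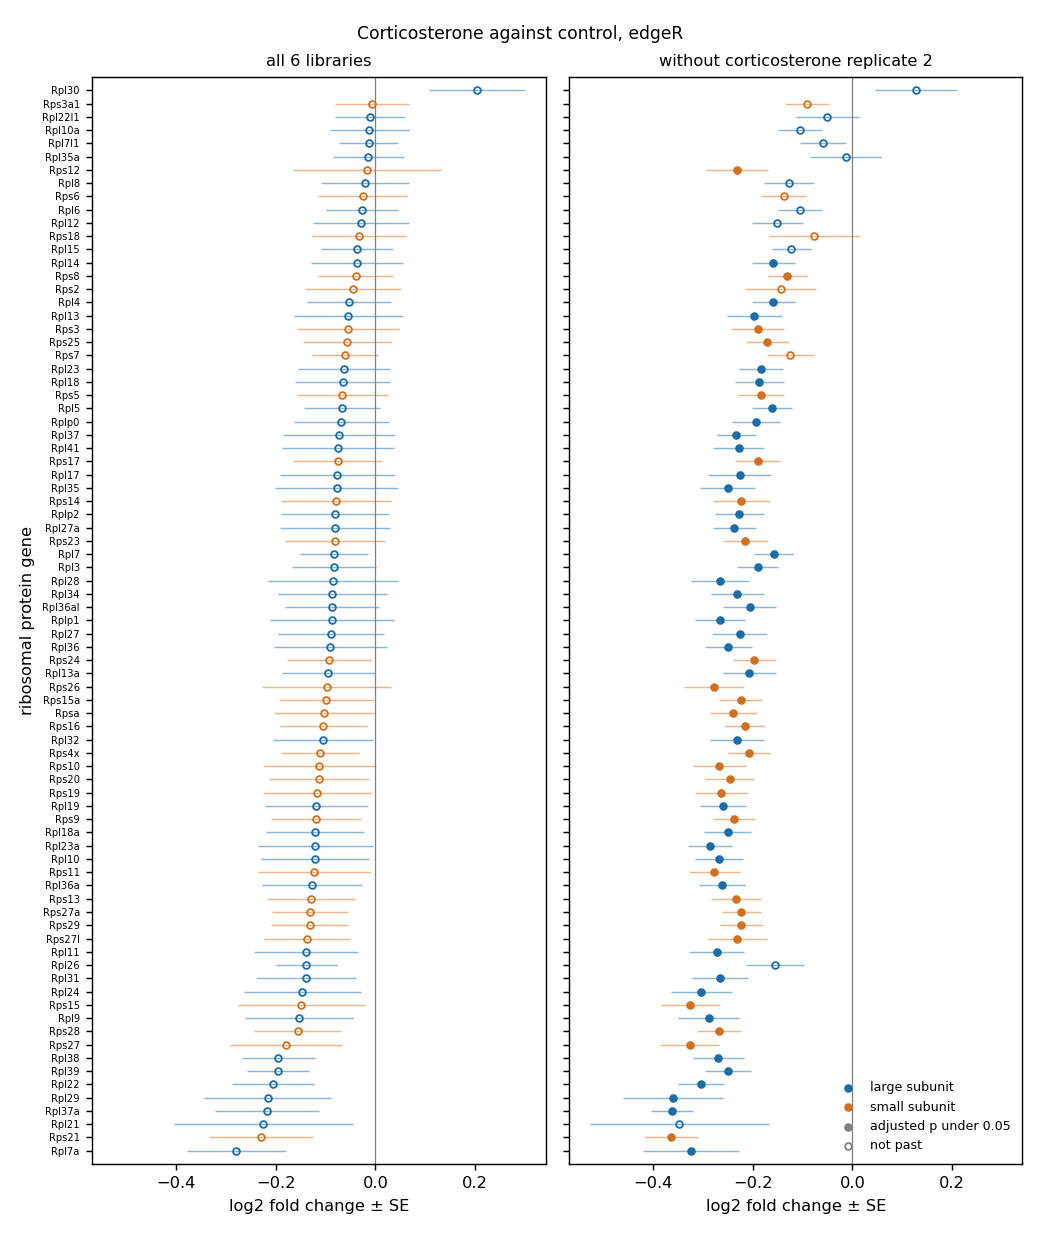
Log2 fold change (x axis, corticosterone minus control, ± SE) of the 81 ribosomal protein genes with a control mean of at least 5 CPM (y axis), with all 6 libraries (left) and without corticosterone replicate 2 (right). Filled points have an adjusted p under 0.05. None is filled on the left, and on the right every filled point lies below 0.

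The order of the libraries was nearly the same from gene to gene. Corticosterone replicates 1 and 3 were both below every control in 73 of 83 members, beside 25.8% of all genes. Replicate 3 was the lowest of all 6 libraries in 73 members (24.2% of all genes), and replicate 1 in 7. Replicate 2 was above every control in 63 members, beside 32.0% of all genes.

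The large and small subunits moved together in each library. Median levels relative to the control mean were -0.058, 0.0023 and 0.063 (log2) in controls and -0.18, 0.13 and -0.25 in treated libraries for the large subunit. For the small subunit they were -0.068, -0.0029 and 0.062 in controls and -0.19, 0.13 and -0.25 in treated libraries. Large minus small was between -0.00095 and 0.010 in all 6 libraries, far under the distance between libraries. The median log2 fold change was -0.086 for 51 large-subunit and -0.10 for 32 small-subunit genes. Without replicate 2, 38 of 51 large-subunit and 27 of 32 small-subunit genes fell, with medians of -0.23 and -0.22.

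**Figure D2:**
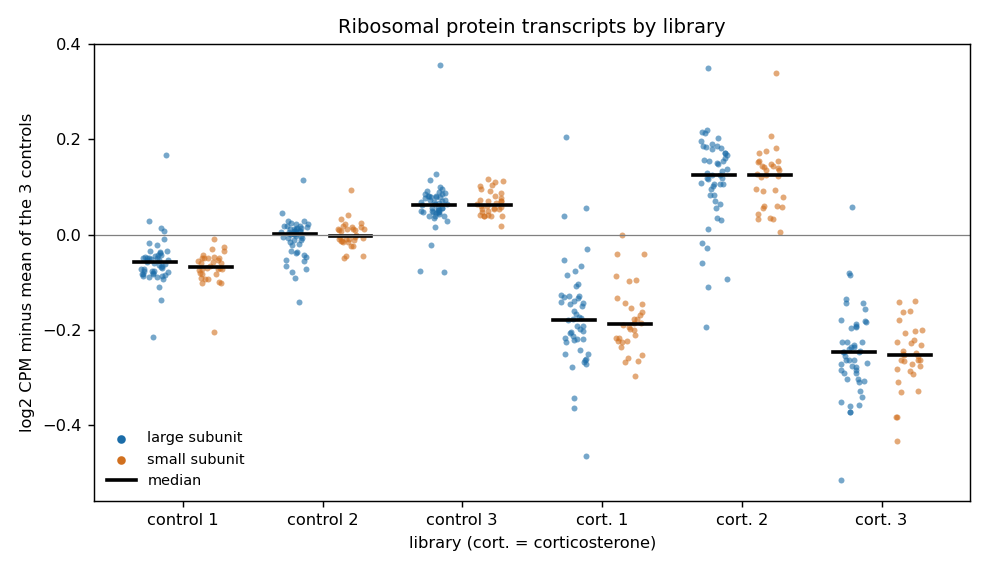
Log2 CPM minus the mean of the 3 controls (y axis) in each library (x axis), 1 point per ribosomal protein gene with a control mean of at least 5 CPM, blue for the large and orange for the small subunit, with black bars at the median over all tested members. Corticosterone replicates 1 and 3 have medians of -0.18 and -0.25 and replicate 2 has 0.13, with the same position for each subunit.

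Ribosomal protein genes held 6.34, 6.63 and 6.84% of all counts in controls and 5.97, 7.15 and 5.65% in treated libraries. The means were 6.60 ± 0.252% (SD, n = 3) and 6.26 ± 0.791% (SD, n = 3). The treated range therefore enclosed the control range, and the spread among treated libraries was larger than the difference of the means. Large-subunit genes made up 58.7 to 58.8% of these counts in every library. Mitochondrially encoded genes held 3.93, 3.91 and 4.01% of counts in controls and 3.52, 3.80 and 3.30% in treated libraries. Corticosterone replicate 2 was again the highest of the treated libraries and also the deepest. The part of depth or of RNA composition in its ribosomal protein level was not tested.

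The 5' ends show how these transcripts begin. The RefSeq promoter table (build GRCm38.p6) held 64 of the 84 members. A C followed by at least 4 bases that are C or T stood exactly at the annotated start of 13 members (20.3%), against 3.01% of 27025 genes in the table. Within 10 bases of the start such a run was found in 39 members (60.9%) and 34.4% of all genes. The 13 are printed because they carry the motif at the first transcribed base. Each is 30 bases, 15 on either side of the start, 5' to 3' on the gene's strand, and the capitals mark the pyrimidine run from the start onward.

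Rpl14 (chr9:120571502-120571531, plus strand): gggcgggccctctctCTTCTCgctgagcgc
Rpl15 (chr14:18270972-18271001, minus strand): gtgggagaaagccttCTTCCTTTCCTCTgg
Rpl28 (chr7:4792950-4792979, plus strand): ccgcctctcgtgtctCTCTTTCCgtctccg
Rpl35 (chr2:39005117-39005146, minus strand): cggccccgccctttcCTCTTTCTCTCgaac
Rpl35a (chr16:33056467-33056496, plus strand): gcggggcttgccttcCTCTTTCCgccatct
Rpl38 (chr11:114668565-114668594, plus strand): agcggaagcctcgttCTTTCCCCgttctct
Rplp2 (chr7:141447636-141447665, plus strand): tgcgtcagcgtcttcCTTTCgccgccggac
Rps6 (chr4:86857353-86857382, minus strand): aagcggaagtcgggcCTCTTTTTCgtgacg
Rps10 (chr17:27635230-27635259, minus strand): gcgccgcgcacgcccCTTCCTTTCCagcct
Rps15a (chr7:118116133-118116162, minus strand): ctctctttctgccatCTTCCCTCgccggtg
Rps18 (chr17:33955651-33955680, minus strand): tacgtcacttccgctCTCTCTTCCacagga
Rps21 (chr2:180257364-180257393, plus strand): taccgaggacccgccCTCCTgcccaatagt
Rps27 (chr3:90213634-90213663, minus strand): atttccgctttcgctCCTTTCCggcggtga

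The runs were 5 to 13 bases long, the shortest in Rplp2 and Rps21 and the longest in Rpl15. Log2 fold changes of these 13 genes lay between -0.23 (Rps21) and -0.014 (Rpl35a), with a median of -0.081, close to the median of all members. In the whole 300-base window, the motif CCGGAAG on either strand, the core bound by ETS factors such as GABP, was found in 26 members (40.6%) and 9.93% of all genes. CCATNTT on either strand, the core of the YY1 motif, was found in 21 members (32.8%) and 18.2% of all genes. TATAA on either strand was found in 18 members (28.1%) and 28.0% of all genes. A match describes letters in the window and is not evidence of binding.

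The stalk of the large subunit recruits elongation factors and is built on Rplp0, which carries pairs of Rplp1 and Rplp2. Rplp0 (chr5:115559467-115563727) was at 2864, 3059 and 3191 CPM in controls and at 2718, 3378 and 2596 CPM in treated libraries, a log2 fold change of -0.068 (SE 0.096, adjusted p = 0.765). Rplp1 (chr9:61913284-61914542) was at 1220, 1276 and 1356 CPM in controls and at 1102, 1487 and 1036 CPM in treated libraries (log2 fold change -0.088, adjusted p = 0.767). Rplp2 was at 364, 384 and 393 CPM in controls and at 337, 428 and 313 CPM in treated libraries (log2 fold change -0.081, adjusted p = 0.749). In each of the 3 genes corticosterone replicates 1 and 3 lay below and replicate 2 above all controls. Without replicate 2 each fell, by 0.19, 0.27 and 0.23 on the log2 scale for Rplp0, Rplp1 and Rplp2 (adjusted p = 0.0222, 0.00782 and 0.0124).

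Rpsa is a small-subunit protein also known as the laminin receptor. Rpsa (chr9:120127689-120132369) was at 3999, 4263 and 4440 CPM in controls, 4234 ± 222 (SD, n = 3), and at 3683, 4648 and 3497 CPM in treated libraries, 3943 ± 618 (SD, n = 3). The log2 fold change was -0.10 (adjusted p = 0.656) with all libraries, and without replicate 2 Rpsa fell by 0.24 (adjusted p = 0.00919). Its treated SD exceeded the difference of the means.

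Rps6, the small-subunit protein that S6 kinases phosphorylate downstream of mTORC1, had a smaller difference than most members. It was at 1451, 1561 and 1571 CPM in controls and at 1429, 1724 and 1350 CPM in treated libraries. Its log2 fold change was -0.026 (adjusted p = 0.916), and -0.14 without replicate 2 (adjusted p = 0.0637). Rps4x, the X-linked small-subunit gene, was at 1967, 2065 and 2098 CPM in controls and at 1826, 2130 and 1716 CPM in treated libraries (log2 fold change -0.11, adjusted p = 0.521). Without replicate 2 Rps4x fell by 0.21 (adjusted p = 0.0105).

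Rps15, which lies close to the decoding site, was at 969, 1049 and 1106 CPM in controls and at 866, 1155 and 797 CPM in treated libraries (log2 fold change -0.15, adjusted p = 0.605), and without replicate 2 it fell by 0.33 (adjusted p = 0.00667). Rps28, a short protein at the mRNA exit side, was at 142, 138 and 148 CPM in controls and at 120, 147 and 117 CPM in treated libraries (log2 fold change -0.16, adjusted p = 0.417). Here replicate 2 stayed inside the control range. Rps3a1 was the small-subunit gene closest to 0, at 1444, 1489 and 1551 CPM in controls and 1453, 1652 and 1356 CPM in treated libraries (log2 fold change -0.0074, adjusted p = 0.972), and it did not pass without replicate 2 either (-0.091, adjusted p = 0.196).

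Rpl5 and Rpl11 enter the large subunit together with a small ribosomal RNA, and outside the ribosome they bind the p53 ligase Mdm2. Rpl5 was at 1560, 1638 and 1659 CPM in controls and at 1481, 1738 and 1417 CPM in treated libraries (log2 fold change -0.067, adjusted p = 0.71). Rpl11 was at 651, 709 and 726 CPM in controls and at 599, 742 and 553 CPM in treated libraries (log2 fold change -0.14, adjusted p = 0.55). Both followed the general library order, and both fell without replicate 2, by 0.16 and 0.27 (adjusted p = 0.0233 and 0.01).

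Among other core proteins of the large subunit, Rpl4, which lines the exit tunnel, was at 2620, 2773 and 2857 CPM in controls and at 2517, 3022 and 2413 CPM in treated libraries (log2 fold change -0.053, adjusted p = 0.795). Rpl3, near the catalytic centre, was at 945, 971 and 986 CPM in controls and at 876, 1041 and 821 CPM in treated libraries (log2 fold change -0.084, adjusted p = 0.664). Rpl10, which joins late in assembly, was at 1257, 1337 and 1405 CPM in controls and at 1126, 1461 and 1089 CPM in treated libraries (log2 fold change -0.12, adjusted p = 0.618). In these 3 genes replicate 2 was above and the other treated libraries below every control. Rpl10a was close to 0, at 1009, 1052 and 1092 CPM in controls and 1004, 1171 and 952 CPM in treated libraries (log2 fold change -0.012), with replicate 1 just under the lowest control.

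Apart from Rpl10l, which is barely expressed, the lowest log2 fold changes were those of Rpl7a (-0.28), Rps21 (-0.23), Rpl21 (-0.23) and Rpl37a (-0.22). Of the tested members 5 (Rpl7a, Rpl22, Rpl26, Rpl38 and Rpl39) had all treated libraries below all controls, 6.02% of those tested, beside 11.6% of all genes, and 0 had them above, beside 10.6%. Rpl38 and Rpl26 are described for this overlap, after their values were seen. That replicate 2 did not exceed the controls in these 5 genes follows from how they were picked.

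Rpl39, a short protein of the exit tunnel, had the lowest p. Rpl39 (chrX:37082520-37085402) was at 252, 235 and 254 CPM in controls, 247 ± 10.7 (SD, n = 3), and at 206, 231 and 209 CPM in treated libraries, 216 ± 13.7 (SD, n = 3). The groups did not overlap, though corticosterone replicate 2 came within a few CPM of control replicate 2. The log2 fold change was -0.20 (SE 0.063, adjusted p = 0.165), and -0.25 without replicate 2 (adjusted p = 0.00715).

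Rpl22, an RNA-binding protein with a known part in lymphocyte development, was at 302, 303 and 315 CPM in controls and at 258, 301 and 240 CPM in treated libraries. Here replicate 2 was level with control replicate 1. The log2 fold change was -0.21 (SE 0.082, adjusted p = 0.257), and -0.30 without replicate 2 (adjusted p = 0.00315).

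Rpl38, needed for translating a set of Hox mRNAs in the embryo, was at 111, 111 and 120 CPM in controls and at 94.3, 109 and 94.9 CPM in treated libraries (log2 fold change -0.20, adjusted p = 0.23). Rpl26, which binds the mRNA of p53, was at 57.7, 60.0 and 59.9 CPM in controls and at 55.8, 54.8 and 50.6 CPM in treated libraries (log2 fold change -0.14, adjusted p = 0.298). In Rpl26 replicate 2 lay between the other treated libraries, unlike in most members, and its value without replicate 2 was -0.15 (adjusted p = 0.0946).

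Rps21 and Rpl37a had among the largest negative values. Rps21 was at 217, 224 and 236 CPM in controls and at 184, 227 and 167 CPM in treated libraries (log2 fold change -0.23, SE 0.10, adjusted p = 0.309). Rpl37a was at 358, 369 and 384 CPM in controls and at 288, 378 and 288 CPM in treated libraries (log2 fold change -0.22, SE 0.10, adjusted p = 0.334). In both genes replicate 2 fell inside the control range rather than above it. Without it, Rps21 and Rpl37a each fell by 0.36 (adjusted p = 0.00318 and 0.000984), and the second is the lowest adjusted p of any member in that comparison.

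Short coding sequences had the lower values. The median log2 fold change was -0.16 in 11 members under 100 residues, -0.096 in 48 of 100 to under 200 residues and -0.055 in 24 of 200 or more. Corticosterone replicate 2 was at 0.032 relative to the controls in the short class, against 0.13 and 0.14 in the others. Without that library the medians were -0.25, -0.23 and -0.16. Removing each library's trend on transcript length over all genes left -0.12, -0.070 and -0.034, so the order of the classes was unchanged. Over 81 members with a control mean of at least 5 CPM, coding length and log2 fold change had a Pearson r of 0.25 and a Spearman rho of 0.34, over genes that share the same libraries. The level of the gene also went with its fold change, with r of 0.18 and rho of 0.30.

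**Figure D3:**
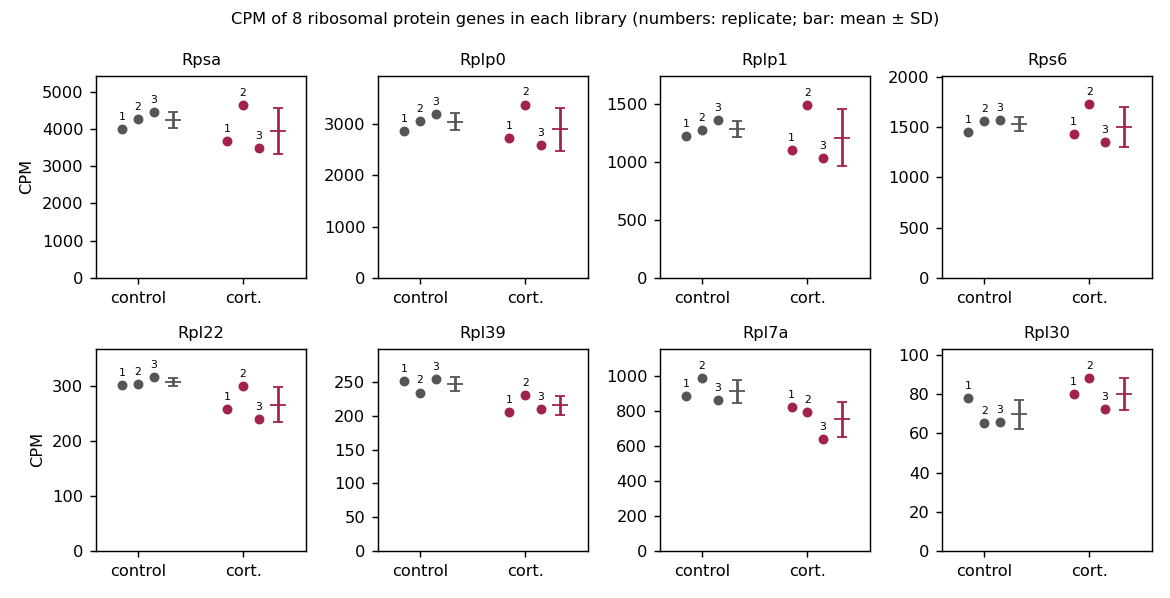
CPM (y axis, from 0) of 8 ribosomal protein genes in control and corticosterone (cort.) libraries, with the replicate number at each point and the mean ± SD beside them. Replicate 2 is the highest treated library in 7 of the panels, all except Rpl7a.

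Rpl7a had the largest negative value among the abundant members, and this value changed when the counts of its pseudogene rows were added. How reads were divided between the copies was not tested. Rpl7a (chr2:26910764-26913318) was at 889, 989 and 865 CPM in controls, 914 ± 65.7 (SD, n = 3), and at 823, 798 and 639 CPM in treated libraries, 753 ± 99.9 (SD, n = 3). The log2 fold change was -0.28 (SE 0.099, adjusted p = 0.204). Its 7 pseudogene rows summed to 13504, 13355 and 18585 counts in controls and 13227, 20950 and 15880 in treated libraries, 20.4% of the pooled control counts. They were highest in corticosterone replicate 2 and control replicate 3, where Rpl7a itself was not, and with them added to the gene the log2 fold change was -0.18 (adjusted p = 0.315).

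Rpl30 was the exception with a positive sign. It was at 78.0, 65.1 and 65.8 CPM in controls and at 80.0, 88.4 and 72.3 CPM in treated libraries, a log2 fold change of 0.20 (SE 0.096, adjusted p = 0.328). Control replicate 1 lay above corticosterone replicate 3, so the groups overlapped. Its 9 pseudogene rows held 58.1% of the pooled control counts, with 5534, 6295 and 6872 counts in controls and 5302, 7094 and 5244 in treated libraries. These rows followed the library order of the other members, and with them added the log2 fold change was 0.046 (adjusted p = 0.841). Rpl30 also overlaps D730044K07Rik on the other strand, and the labels do not say whether the libraries were stranded.

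Ribosomal protein genes have many processed pseudogenes, intronless copies that can take reads of the parent. The table held 233 rows named as pseudogenes of a member, for 54 of the 84. They held 0.943, 0.991 and 1.02% of all counts in controls and 0.915, 1.08 and 0.870% in treated libraries, the same library order as the genes. Of 170 rows tested, 0 rose and 0 fell, beside 1.35% and 1.46% of all tested genes, with a median log2 fold change of -0.076. Single rows could depart from the library order. Rps18-ps6 had 43367, 46821 and 49059 counts in controls and 38549, 0 and 38307 in treated libraries. Rps18-ps4 had 52991 counts in corticosterone replicate 2 and 0 in every other library. Whether reads were divided between copies differently in that library was not tested. For 5 members the pseudogene rows held more counts than the gene: Rps2 (92.2% of the pooled control counts), Rpl21 (92.5%), Rps18 (91.9%), Rpl35a (80.2%) and Rpl30. The levels of these 5 genes are therefore uncertain. Other members came near this limit, with 46.7% for Rpl3, 42.9% for Rps12 and 41.7% for Rpl17, and their levels carry a like reserve. Rpl21 was at 9.29, 9.78 and 13.8 CPM in controls and at 7.81, 10.9 and 9.42 CPM in treated libraries (log2 fold change -0.23, SE 0.18, adjusted p = 0.576). Rps18 was at 78.1, 96.1 and 97.2 CPM in controls and at 90.0, 93.7 and 81.7 CPM in treated libraries (log2 fold change -0.032, adjusted p = 0.898). Neither had the library order of the other members, with replicate 2 inside the control range in both.

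Rps2, a core small-subunit protein chosen here after its values were seen, was at 250, 271 and 286 CPM in controls, with a mean of 17414 counts against 205303 on its 9 pseudogene rows. Adding pseudogene counts left 0 members called in either direction and a median log2 fold change of -0.089. Rpl38 had 12.3% of its pooled control counts on 2 such rows, with 1040, 1087 and 984 counts in controls and 1005, 1648 and 1013 in treated libraries. With them added its log2 fold change was -0.13 (adjusted p = 0.463). In all, 18 members overlap a gene on the other strand, Rpl3, Rpl5, Rpl10a, Rps2 and Rps14 among them, and reads of such pairs cannot be told apart without strand.

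**Figure D4:**
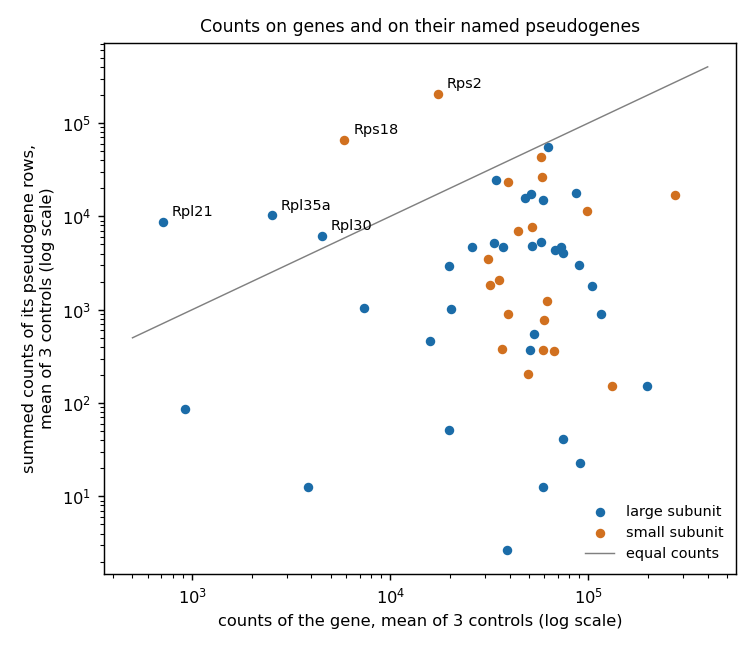
Summed counts of the pseudogene rows (y axis, log scale) against counts of the parent gene (x axis, log scale), each a mean of the 3 controls, for the 54 members with such rows. The 5 labelled genes lie above the grey line of equal counts.

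Levels between genes are compared per transcript length, in FPKM. In controls the highest large-subunit members were Rplp1 at 2274 ± 111, Rplp0 at 1618 ± 81.5 and Rpl4 at 1211 ± 48.2 FPKM (SD, n = 3). The highest of the small subunit were Rps15 at 1461 ± 90.1, Rps3a1 at 1352 ± 42.9 and Rpsa at 1180 ± 57.2 FPKM (SD, n = 3). Rps2 was at 130 FPKM with 92.2% of its pooled control counts on pseudogene rows, so its place in this order is uncertain. Rps15 and Rps3a1 were closer than the sum of their SDs, and so were Rpl4 and the next large-subunit gene, Rpl23a at 1168 ± 46.7, and Rpsa and the next small-subunit gene, Rps4x at 1107 FPKM, so these orders are not resolved. The lowest tested members were Rpl10l at 0.363 ± 0.116, Rpl39l at 1.09 ± 0.492 and Rpl21 at 2.84 FPKM for the large subunit, and Rps18 at 32.6, Rps27l at 52.2 and Rps28 at 73.4 FPKM for the small, with the reserve on Rpl21 and Rps18 given above.

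Some ribosomal proteins have a second, diverged gene. Rpl10l and Rpl39l, known from the testis, were low: Rpl10l had 35, 29 and 19 counts in controls and 8, 32 and 17 in treated libraries, and Rpl39l had 99, 58 and 44 in controls and 47, 53 and 90 in treated libraries. Their parents Rpl10 and Rpl39 were at 574 and 152 FPKM in controls. The log2 fold change of Rpl10l, -0.55 (SE 0.53), was the lowest of the tested members and its SE was nearly as large.

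Other pairs were both expressed. Rpl22 was at 93.2 and Rpl22l1 at 23.2 FPKM in controls, Rps27 at 196 and Rps27l, a p53 target, at 52.2, Rpl36a at 164 and Rpl36al at 111, and Rpl7 at 585 and Rpl7l1 at 33.5. Rpl22l1 was at 52.8, 52.6 and 51.5 CPM in controls and at 53.7, 54.7 and 47.4 CPM in treated libraries (log2 fold change -0.010, adjusted p = 0.96), while Rpl22 had -0.21. Rpl7l1 was at 133, 127 and 137 CPM in controls and at 130, 139 and 125 CPM in treated libraries (log2 fold change -0.013, adjusted p = 0.935). Without replicate 2 Rpl22 and Rpl7 fell (log2 fold changes of -0.30 and -0.16), whereas Rpl22l1 and Rpl7l1 were at -0.050 and -0.058 (adjusted p = 0.648 and 0.437). The difference within a pair was not tested. Rps27l was at 46.6, 47.4 and 50.6 CPM in controls and 40.3, 49.3 and 41.9 CPM in treated libraries, and Rps27 at 221, 224 and 248 CPM in controls and 192, 243 and 177 CPM in treated libraries. Their log2 fold changes were -0.14 and -0.18. Rpl36al was at 162, 168 and 179 CPM in controls and 151, 185 and 143 CPM in treated libraries, and Rpl36a at 297, 308 and 318 CPM in controls and 264, 331 and 249 CPM in treated libraries (log2 fold changes -0.087 and -0.13). All 4 of these genes fell without replicate 2 (adjusted p = 0.0275, 0.00688, 0.0245 and 0.00571 for Rps27l, Rps27, Rpl36al and Rpl36a).

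Genes that build ribosomes had medians on the other side of 0. Of 34 genes of subunit assembly and export, 0 rose and 0 fell (9 at an unadjusted p under 0.05, beside 17.0% of all genes), and 30 had a log2 fold change above 0, with a median of 0.11, beside a share of 50.0% of all genes below 0. Their medians were 0.084, 0.13 and 0.090 in corticosterone replicates 1, 2 and 3, so all treated libraries lay on the same side. Among them the nucleolar GTPase Gnl3 was at 0.20 (adjusted p = 0.0686) and the export adaptor Nmd3 at 0.21 (adjusted p = 0.0964).

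Of 54 genes of RNA polymerase I and rRNA processing, 0 rose and 0 fell. An unadjusted p under 0.05 was reached by 16 of them, beside 17.0% of all genes. Of the 54, 40 were above 0, and the median was 0.078. Heatr1, a processome component, was at 0.26 (adjusted p = 0.0677) and Nop14 at 0.21 (adjusted p = 0.0769). The ribosomal protein genes thus had a median below 0 beside medians above 0 for the factors that assemble them. This contrast came from corticosterone replicates 1 and 3. In replicate 2 the medians were alike, at 0.13 for ribosomal proteins, 0.13 for the assembly genes and 0.12 for the rRNA processing genes. Without replicate 2, 7 of the 34 assembly genes rose and 2 fell, and 12 of the 54 rRNA genes rose and 5 fell, beside 10.5% and 10.0% of all genes.

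Among 38 translation initiation factors 3 rose and 0 fell, beside 1.35% and 1.46% of all genes, with a median of 0.059. Without replicate 2, 11 rose and 2 fell, beside 10.5% and 10.0%. Eif3c, a core subunit of the factor eIF3, was at 529, 526 and 552 CPM in controls and at 652, 678 and 653 CPM in treated libraries (log2 fold change 0.30, SE 0.048, adjusted p = 0.0162). Eif5, which triggers GTP hydrolysis at the start codon, was at 502, 498 and 484 CPM in controls and at 621, 569 and 637 CPM in treated libraries (0.30, SE 0.057, adjusted p = 0.0322). Eif2s2, a subunit of the factor eIF2 that brings the initiator tRNA, was at 191, 192 and 196 CPM in controls and at 228, 232 and 224 CPM in treated libraries (0.24, SE 0.046, adjusted p = 0.0322). In all 3 genes the groups did not overlap, and replicate 2 lay with the other treated libraries. The calls were thin: each was lost when any control library or corticosterone replicate 1 was left out (highest adjusted p of 0.145, 0.187 and 0.212), while the log2 fold changes stayed at 0.28 to 0.32, 0.27 to 0.35 and 0.23 to 0.26. With no low count filter Eif5 (adjusted p = 0.0778) and Eif2s2 (0.0596) were also lost, and with the length trend removed Eif2s2 (0.0791).

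**Figure D5:**
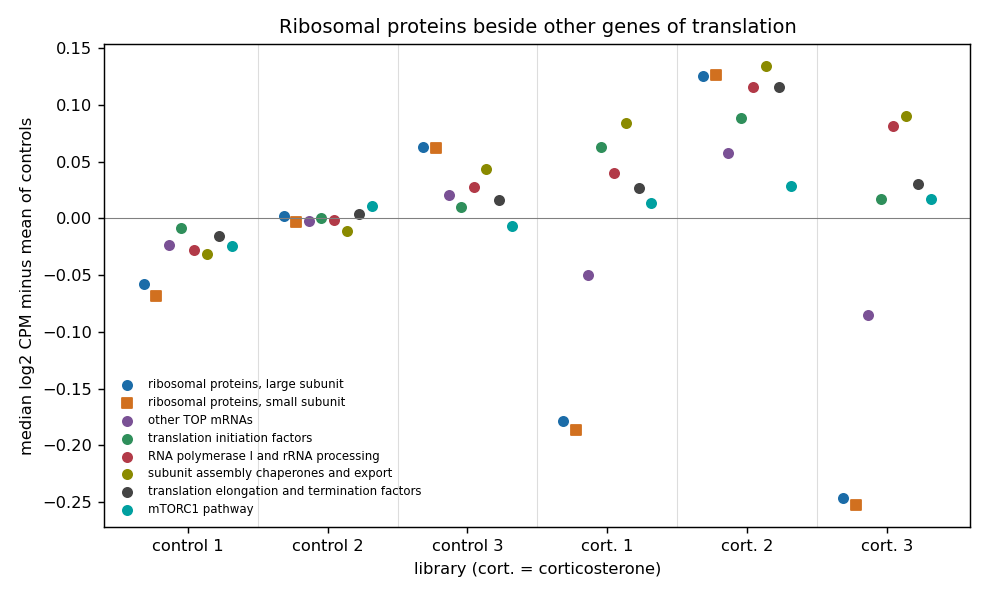
Median log2 CPM minus the control mean (y axis) over each group of genes in each library (x axis), with ribosomal proteins in blue circles (large) and orange squares (small). In corticosterone replicates 1 and 3 the ribosomal proteins are at -0.18 to -0.25, other TOP mRNAs at -0.050 and -0.085, and the assembly and rRNA processing genes above 0. In replicate 2 both subunits are at 0.13, the assembly genes at 0.13 and the rRNA processing genes at 0.12.

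Of 14 elongation and termination factors 0 rose and 0 fell, with a median of 0.066. An unadjusted p under 0.05 was reached by 4 of them, beside 17.0% of all genes. Without replicate 2, 4 rose and 1 fell, beside 10.5% and 10.0% of all genes. Among 30 tested genes of the mTORC1 pathway 1 rose and 0 fell, beside 1.35% and 1.46% of all genes, with a median of 0.041. Without replicate 2, 7 of 31 tested rose and 1 fell, beside 10.5% and 10.0%. The gene that rose was Sesn2, a leucine sensor that restrains mTORC1, at 15.9, 18.5 and 17.2 CPM in controls and 24.1, 26.9 and 24.5 CPM in treated libraries (log2 fold change 0.55, SE 0.087, adjusted p = 0.0162). Its call was lost when any library other than corticosterone replicate 2 was left out (highest adjusted p of 0.0844) or with no low count filter (0.0509), with the log2 fold change between 0.50 and 0.60. Ddit4, a glucocorticoid-induced inhibitor of mTORC1, was at 0.22 (adjusted p = 0.0629), and Eif4ebp1, a translation repressor that mTORC1 inactivates, at 0.32 (adjusted p = 0.0742).

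A list of 24 other TOP mRNAs, which encode translation factors and associated proteins, lay closer to the ribosomal proteins. None of them rose or fell (1 at an unadjusted p under 0.05, beside 17.0% of all genes). Of the 24, 17 were below 0, beside 50.0% of all genes, and the median was -0.020. Their medians in corticosterone replicates 1, 2 and 3 were -0.050, 0.058 and -0.085, the same order as the ribosomal proteins over a narrower range. Naca, a chaperone subunit for nascent chains, was at -0.12 (adjusted p = 0.412), while Eef1a1, the elongation factor that brings aminoacyl-tRNA and chosen here after its values were seen, was at 0.0016. Without replicate 2, 2 of the 24 rose and 7 fell, beside 10.5% and 10.0% of all genes.

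A further 14 genes are physically tied to ribosomal proteins, as fusion precursors, binding partners or kinases. In this list 0 rose and 0 fell, with a median of -0.0011. An unadjusted p under 0.05 was reached by 0 of them, beside 17.0% of all genes. Without replicate 2, 4 rose and 4 fell, beside 10.5% and 10.0% of all genes. Fau, which encodes a small-subunit protein behind a ubiquitin-like part, falls outside the naming pattern and is named after its values were seen. It was at 474, 479 and 496 CPM in controls and at 419, 499 and 414 CPM in treated libraries (log2 fold change -0.12, adjusted p = 0.469). Fau had the library order of most members, with replicate 2 highest and replicates 1 and 3 lowest.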

How the data were processed

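RNA sequencing of 3 control and 3 corticosterone-treated libraries of 4T1 cells was analysed, grouped by the treatment label. Per the labels' protocols, total RNA was used, and a column kit and TRIzol are both named for extraction. The authors deposited 1 table of 28154 genes. Its counts are, per the file headers, given for each gene in each library, and they are whole numbers, not normalized by the authors. The deposited FPKM values, per the file headers, scale fragments to transcript length and library depth. Neither aligner nor counter, strandedness, dose or duration is given in the sources used. The submitters' processing notes name the human build GRCh38, but the identifiers are those of mouse genes. All 84 members were found in GENCODE M21 (mouse GRCm38), 71 with identical coordinates, and coordinates of genes are those of the table.

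Counts were scaled by TMM, filtered with filterByExpr (minimum count 10, minimum total 15) and fitted with a quasi-likelihood model of group over all 6 libraries (edgeR 4.0.16 under R 4.3.3). The Benjamini-Hochberg adjustment ran over 17283 genes, with a threshold of 0.05. The biological coefficient of variation was 0.135. No p was computed over a list. Coding lengths were taken from the GENCODE annotation. The pipeline was tested on simulated data.

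Alternatives were DESeq2 1.42.0, its size factors in edgeR, TMM without ribosomal protein genes, limma 3.58.1 on log2(FPKM + 1) and log2(FPKM + 0.1) for genes reaching 1 FPKM in 3 or more libraries, no filter, a mean FPKM of at least 5, pseudogene counts added to the parent, the replicate block, each library left out, and an adjusted p threshold of 0.1. Removal of each library's trend on transcript length was chosen after seeing the data. All members could be named. Per-library values were given for the 5 highest and 5 lowest log2 fold changes, the 3 highest and 3 lowest levels of each subunit, paralog pairs, 7 genes fixed by name and up to 3 genes of each list by lowest p, and other genes given such values were picked with their values known. Members and lists were chosen with earlier results of these data known. A gene withheld for evaluation is not reported here.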

Additional observations from a re-analysis of the deposited data

How the results depend on the processing

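Leaving out 1 library at a time gave 0 ribosomal protein genes higher in each case and 0 to 65 lower, with 65 only without corticosterone replicate 2. The median log2 fold change of the members ran from -0.23 to -0.012, that of the large subunit from -0.23 to -0.0058 and that of the small from -0.22 to -0.021. Large minus small ran from -0.0058 to 0.019, and members below 0 from 50 to 81. The other alternatives kept 0 members called and the sign of the medians. Fitting the replicate block gave 0 higher and 0 lower members and a median of -0.099. Deviations of libraries with the same number were hardly correlated (r of 0.011, 0.038 and -0.088). The labels do not say whether such libraries were prepared together, and these correlations cannot decide it. Under the block Eif3c, Eif5 and Eif2s2 missed the threshold (adjusted p = 0.0884, 0.113 and 0.134) and 237 genes were called, beside 487.

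Among members with values by library, signs turned in 11 when single libraries were left out, and the cause was not tested. The ranges were -0.058 to 0.024 for Rpl7l1, -0.10 to 0.052 for Rpl10a, -0.050 to 0.055 for Rpl22l1, -0.091 to 0.057 for Rps3a1, -0.41 to 0.33 for Rpl39l, -0.16 to 0.013 for Rpl4, -0.19 to 0.0072 for Rplp0, -0.27 to 0.014 for Rplp1, -0.23 to 0.011 for Rplp2, -0.12 to 0.025 for Rps18 and -0.14 to 0.048 for Rps6. With the length trend removed, Rpl10a was at 0.0068, Rpl22l1 at 0.019, Rps3a1 at 0.039 and Rps6 at 0.010. DESeq2 called 1113 genes, edgeR with no filter 211, limma 504, edgeR on genes with a mean of 5 FPKM or more 433, and edgeR with the length trend removed 765. Counts were low for Rpl10l, Rpl39l and Rpl3l, whose values are the least certain.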
